A study of Mus musculus with 159 samples.

Results

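The segments described here are the parts of mouse liver regions of interest (ROIs) that were left after the stained cells had been taken out. On the GeoMx platform, barcoded RNA probes are hybridised to a fixed tissue section and their barcodes are released from 1 illuminated segment at a time. Each ROI was split by staining for DESMIN (hepatic stellate cells, HSCs), MARCO and IBA1 (macrophages), and the area negative for all of them formed the Other segment. All 49 Other segments of the 159 deposited segments were taken, 26 from the livers labelled treated CCl4 (livers 1 and 3) and 23 from the livers labelled control (livers 2 and 4). MARCO-Hi ROIs gave 6 and 7 segments in livers 1 and 3, and 8 and 7 in livers 2 and 4. MARCO-Lo ROIs gave 7 and 6 segments in livers 1 and 3, and 5 and 3 in livers 2 and 4.

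The mice were WT C57BL/6 animals of both sexes, 8 weeks old at the start. The sample labels call livers 1 and 3 treated CCl4 with fibrosis, and livers 2 and 4 control and healthy. The series design and the methods instead give 6 weeks of carbon tetrachloride (CCl4), a hepatotoxin injected intraperitoneally 2 times per week, to all 4 mice. By the methods, 2 mice also received MARCO+ bone marrow-derived macrophages (BMDMs) through the tail vein at weeks 3 and 5, and 2 received saline. No label tells which livers those were, so the pairs are named by their labels only, and a difference between them cannot be assigned to CCl4 or to the cell transfer. The comparison asks whether the tissue outside the stained cells differs between the pairs, within each of the ROI classes.

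In liver tissue, most of the area outside macrophages and stellate cells is occupied by hepatocytes, which secrete most plasma proteins and therefore hold a large secretory apparatus. HSCs store retinoids at rest and, after repeated injury, become the main source of fibrillar collagen. MARCO is a class A scavenger receptor of macrophages. The authors had reduced the deposited table to genes found in HSCs by single-cell sequencing, so the 607 genes are a stellate gene set measured here outside the DESMIN+ area. No listed marker of hepatocytes, cholangiocytes or lymphoid cells was among them, and the cell make-up of the Other segments could therefore not be checked with those markers.

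The depth of the Other segments was 75571 to 448875 recovered counts over the 607 genes, with a median of 209469. Medians by group were 221283 (treated CCl4, MARCO-Hi), 184620 (treated CCl4, MARCO-Lo), 224664 (control, MARCO-Hi) and 256720 (control, MARCO-Lo). Levels differed between segment types: 250 genes were lower and 214 higher in Other than in HSC segments in all 4 livers. On the log2 scale, the difference between Other and HSC segments ran from -3.33 to -2.74 over the livers for *Col3a1*, a fibrillar collagen, and from 0.99 to 1.17 for *Fn1*, which hepatocytes secrete as plasma fibronectin. *Des*, which encodes desmin, differed by -0.65 to -0.09. *Marco* averaged 7.68 to 28.6 normalized units per liver in Other segments, against 94.4 to 1380 in MARCO+ segments, and 8 listed stellate marker genes were measured, 6 of them with mean values under 10 in Other segments.

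No single gene passed the test by label in either ROI class. Q3-normalized values were averaged over the segments that a liver had in each class and taken as log2(value + 1), which gives 2 livers a side, and limma was fitted to all 8 means. In MARCO-Hi ROIs 0 of 607 genes (0.0%) had a Benjamini-Hochberg adjusted p below 0.05, and the lowest was 0.246. In MARCO-Lo ROIs the count was also 0 (0.0%), and the lowest adjusted p was 0.0765. At an unadjusted p below 0.05 there were 109 genes (18.0%) in MARCO-Hi ROIs, 76 higher and 33 lower, and 162 (26.7%) in MARCO-Lo ROIs, 136 higher and 26 lower. That split depended on the centring: with each segment set to the same median it was 23 higher and 77 lower in MARCO-Hi ROIs, and 34 and 113 in the other class. edgeR on summed counts called 0 genes in both classes. DESeq2 on the same sums called 43 and 68, a linear mixed model on single segments 13 and 26, and limma on single segments 50 and 68. All differences below are log2 differences, treated CCl4 minus control, with MARCO-Hi ROIs first where a pair of values is given, and none of them passed the test at adjusted p below 0.05. Livers that lie apart are those where both livers of a label had values on the same side of both livers of the other label.

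The livers of the pairs were apart for many genes. With 2 livers a side, a gene can often lie apart by the order of 4 values alone. The counts of genes apart are therefore no test of the label. In MARCO-Hi ROIs, livers 1 and 3 both lay above livers 2 and 4 for 226 genes (37.2%) and both below for 102 genes (16.8%). In MARCO-Lo ROIs, 307 genes (50.6%) lay above and 86 (14.2%) below. The same side was taken in both classes by 196 genes above and 68 below. The 2 classes come from the same 4 livers, so the second class is no independent repeat of the first.

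Direction followed the level of the gene. Of the 255 genes with a mean normalized value under 10, 248 had a positive difference in MARCO-Lo ROIs (median 0.24), 213 with both treated CCl4 livers above both control livers and 0 with both below. Of the 352 genes at or over 10, 184 had a positive difference (median 0.01), 94 with the treated CCl4 livers above and 86 below. MARCO-Hi ROIs had medians of 0.17 and 0.00 for the same sets, with 237 and 177 positive differences. The share of genes under 10 that lay apart above was 60.0% in MARCO-Hi ROIs and 83.5% in the other class, and lists made mostly of such genes are to be read against these shares. The median of all genes was 0.09 in MARCO-Hi ROIs and 0.13 in the other class, or -0.02 in both with each segment set to the same median, so the lists below are read against it. The lowest values of a segment moved with the label as well. The 5th percentile over the genes averaged 4.55 to 4.73 per liver and class in control livers and 4.88 to 5.72 in treated CCl4 livers, where liver 1 in MARCO-Hi ROIs was the lowest. The part of these low values in the differences of dim genes was not tested directly. The differences with the 5th percentile of each segment subtracted, an alternative added after the data were seen, are therefore given for several genes and groups below. They are to be read against a median of all genes of 0.01 and 0.00 after the subtraction, MARCO-Hi ROIs first. Genes at an unadjusted p below 0.05 by limma then fell from 109 and 162 to 66 and 69. Of those left, 33 and 35 were higher and 33 and 34 lower, and the lowest adjusted p was 0.41 and 0.31.

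**Figure D1:**
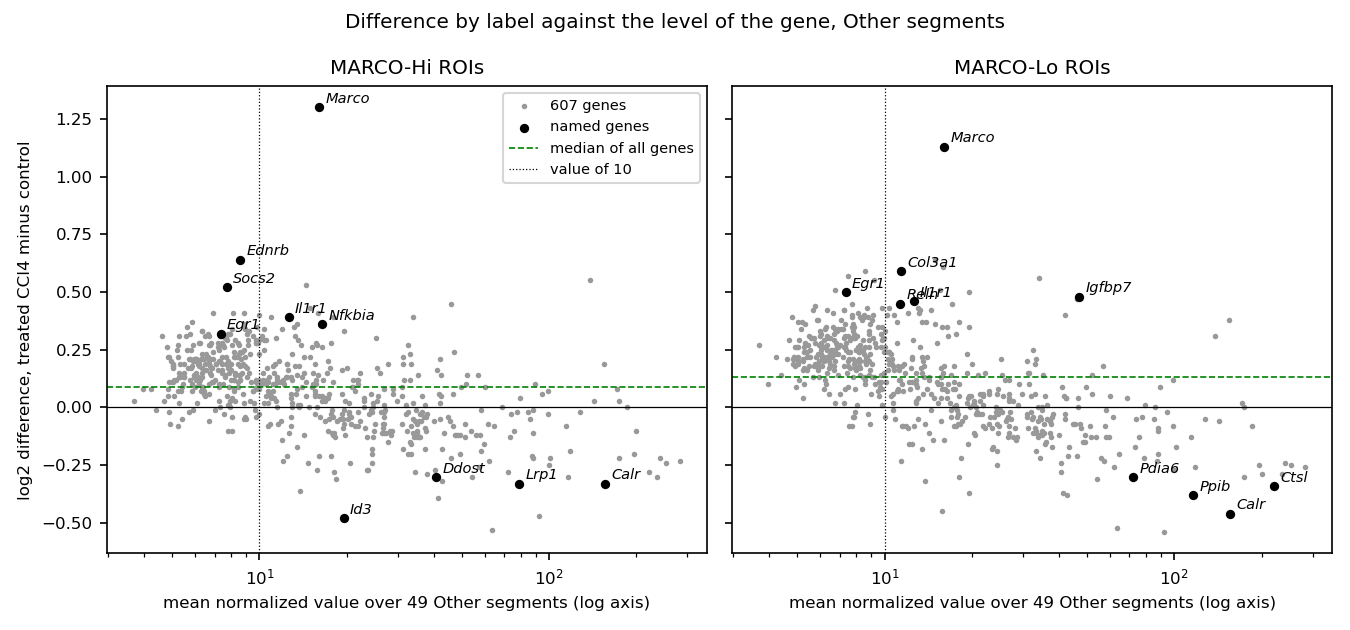
Log2 difference by label (vertical axis, treated CCl4 minus control) of each of the 607 genes against its mean normalized value over the 49 Other segments (horizontal log axis), in MARCO-Hi ROIs (left) and MARCO-Lo ROIs (right). Black points are named genes, the dashed line is the median of all genes (0.09 and 0.13), and the dotted line is a value of 10. Most genes under 10 lie above 0, and the named genes below 0 all have values over 10.

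Several genes of inflammatory and immediate early signalling had higher values in both treated CCl4 livers. *Il1r1*, the signalling receptor of interleukin-1 (chromosome 1, 40222480 to 40316201, GRCm38.p6), had log2 values of 3.99 and 3.83 in livers 1 and 3 and 3.54 and 3.50 in livers 2 and 4 in MARCO-Hi ROIs. In MARCO-Lo ROIs it had 4.06 and 3.90 against 3.50 and 3.54. The pairs did not overlap in either class, and the differences were 0.39 (SE 0.09) and 0.46 (SE 0.09), with adjusted p of 0.246 and 0.0955 by limma.

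*Egr1*, a transcription factor induced within minutes of stimulation, had log2 values of 3.18 and 3.23 against 2.89 and 2.87 in MARCO-Hi ROIs. In MARCO-Lo ROIs the values were 3.19 and 3.31 against 2.76 and 2.75. The livers of each pair were close to each other, and the pairs differed by 0.32 (SE 0.08) and 0.50 (SE 0.08), the latter with an adjusted p of 0.0765 by limma. Single segments overlapped, from 6.44 to 10.5 normalized units in treated CCl4 livers and from 3.90 to 8.46 in control livers. *Egr1* was a dim gene here, with a mean of 7.34. With the 5th percentile subtracted its differences were 0.51 and 0.87.

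*Jun*, another immediate early factor, had differences of 0.43 (SE 0.17) and 0.64 (SE 0.17). Its control livers were far apart in MARCO-Hi ROIs, with 3.46 in liver 2 and 4.05 in liver 4, and without liver 2 the differences were 0.14 and 0.45. *Cebpb*, a factor of the acute phase response, differed by 0.53 (SE 0.17) and 0.42 (SE 0.17), and *Nfkbia*, which encodes the inhibitor of NF-kappaB, by 0.36 (SE 0.10) and 0.31 (SE 0.10). Without liver 2 the differences of *Cebpb* were 0.33 and 0.16, against 0.73 and 0.68 without liver 4, and liver 3 and liver 4 had the same value of 4.00 in MARCO-Lo ROIs. *Socs2*, a suppressor of cytokine signalling, had log2 values of 3.40 and 3.21 against 2.82 and 2.75 in MARCO-Hi ROIs and a difference of 0.52 (SE 0.14). Of the immediate early list, 7 of 25 genes were analysed. In each class 0 passed the test, 4 lay apart above, 1 lay apart below and 2 overlapped. Of all genes, 37.2% and 50.6% lay apart above and 16.8% and 14.2% below. In MARCO-Lo ROIs *Cebpb* was counted as apart only by digits beyond those given. The list's medians were 0.32 and 0.35. The gene below was *Zfp36l1*, an RNA-binding protein that promotes mRNA decay, with differences of -0.39 and -0.37 (SE 0.16 each), or -0.15 and -0.24 without liver 2. The 7 analysed genes of chemokine and cytokine signalling, *Il1r1* among them, had medians of 0.15 and 0.19, near the medians of all genes.

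**Figure D2:**
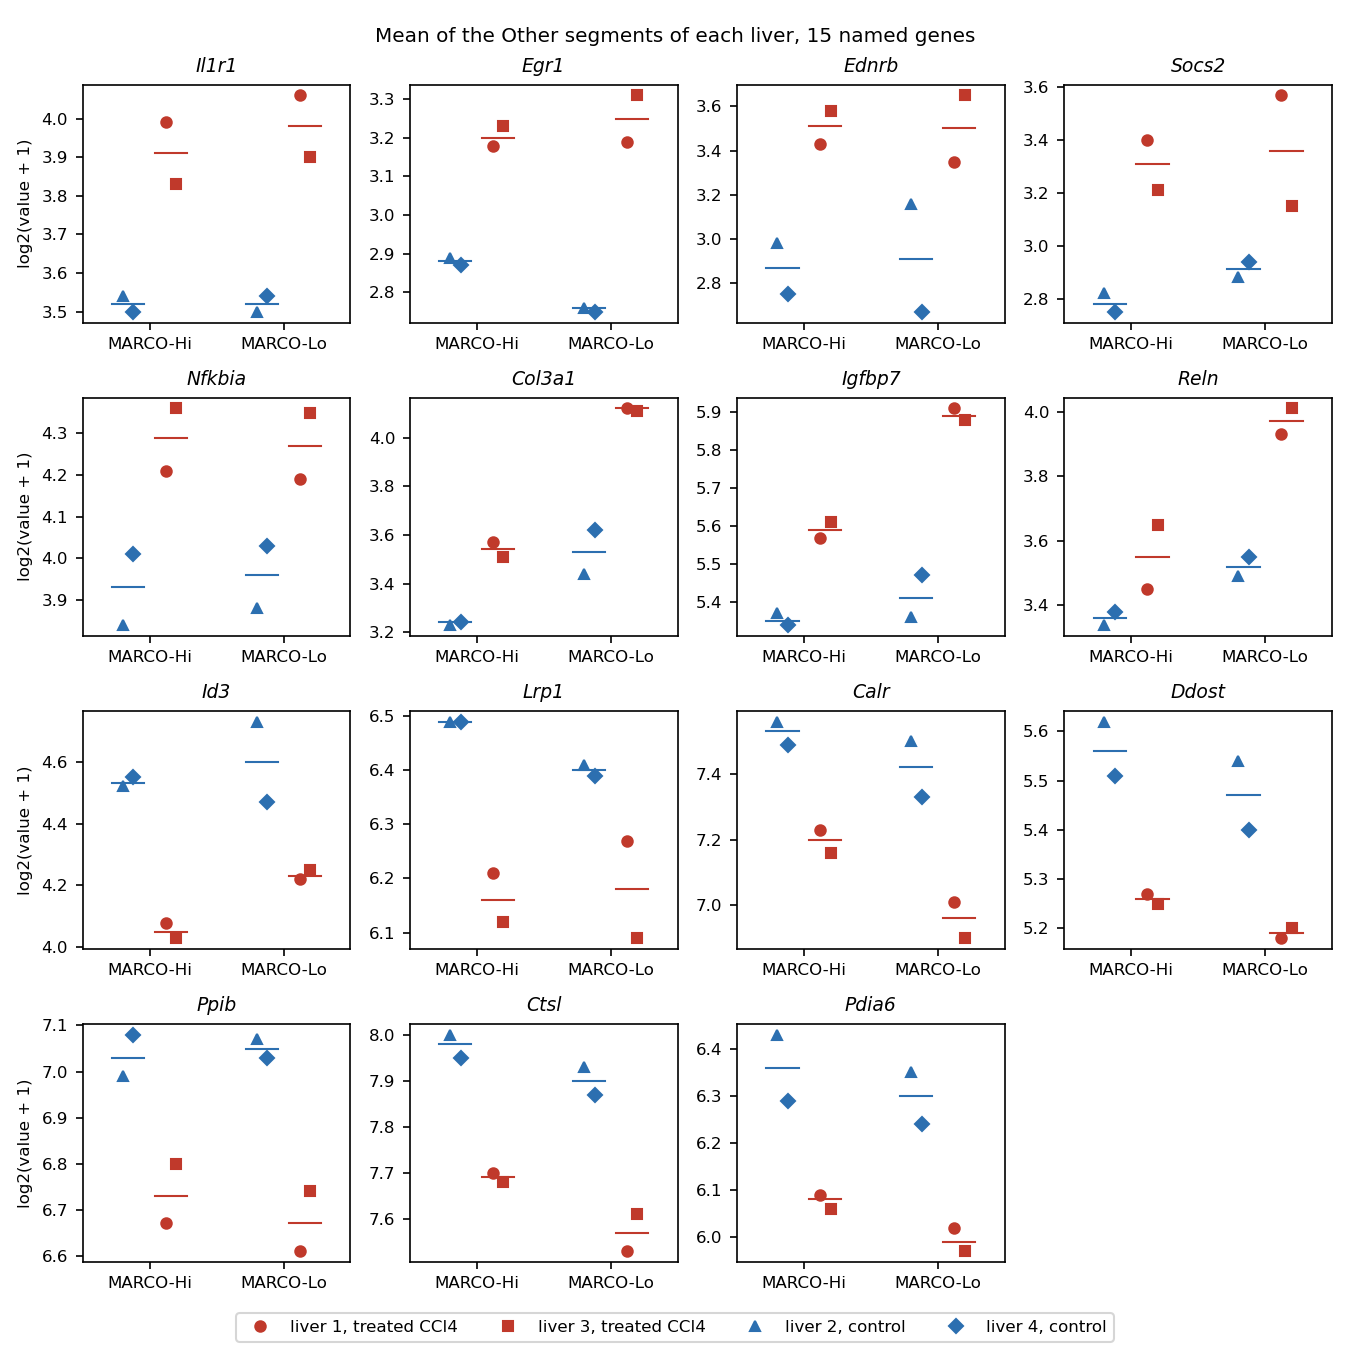
Mean log2(normalized value + 1) of the Other segments of each liver for 15 of the 16 genes with the smallest p in each direction and class, by ROI class, with red for livers labelled treated CCl4, blue for livers labelled control and a line at the mean of each pair. Vertical axes differ between panels and do not start at 0. The pairs do not overlap in any panel, but the genes were chosen by p from these same values. Of all genes, 37.2% (MARCO-Hi) and 50.6% (MARCO-Lo) lay apart above, and 16.8% and 14.2% below.

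The 5 matrix lists had their larger medians in MARCO-Lo ROIs, though not every member followed. All genes under 10 also had a larger median there (0.24 against 0.17). *Col3a1* (chromosome 1, 45311538 to 45349706, GRCm38.p6), a fibrillar collagen of scar tissue, had log2 values of 4.12 and 4.11 in livers 1 and 3 and 3.44 and 3.62 in livers 2 and 4 in MARCO-Lo ROIs. The difference was 0.59 (SE 0.10), with an adjusted p of 0.0765 by limma. In MARCO-Hi ROIs the values were lower in all 4 livers, at 3.57 and 3.51 against 3.23 and 3.24, and the difference was 0.30 (SE 0.10). *Col1a2* differed by 0.18 and 0.51 (SE 0.12 each) and *Col1a1* by 0.17 and 0.33 (SE 0.15 each). The fibrillar collagens analysed were 5 of 7, and all 5 lay apart above in both classes, with medians of 0.18 and 0.33. Among them, 4 had mean values under 10, and of all genes under 10, 60.0% and 83.5% lay apart above. After subtraction of the 5th percentile the medians were 0.18 and 0.38. In these mixed segments, a larger number of matrix-producing cells and more RNA per cell cannot be told apart.

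Among small leucine-rich proteoglycans, which bind and space collagen fibrils, 4 of 8 genes were analysed. All 4 lay apart above in MARCO-Lo ROIs (median 0.47) and 3 in MARCO-Hi ROIs (median 0.17), and 2 had mean values under 10. Over all genes, 50.6% and 37.2% lay apart above in MARCO-Lo and MARCO-Hi ROIs. *Lum* (lumican) differed by 0.55 (SE 0.13) and *Bgn* (biglycan) by 0.45 (SE 0.10) in MARCO-Lo ROIs, against 0.33 (SE 0.13) and 0.15 (SE 0.10) in MARCO-Hi ROIs. *Dcn* (decorin) had log2 values of 4.93 and 4.81 against 4.06 and 4.68 in MARCO-Lo ROIs. In MARCO-Hi ROIs *Dcn* had 4.06 in both treated CCl4 livers, between the 3.83 of liver 2 and the 4.30 of liver 4, and a difference of -0.01 (SE 0.17).

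Matrix glycoproteins and basement membrane genes were represented by 22 of 44 listed genes, 17 of them with values under 10. In MARCO-Lo ROIs 18 lay apart above and 1 below, with a median of 0.25, and in MARCO-Hi ROIs 11 above and 1 below, with a median of 0.14. All genes under 10 had medians of 0.24 and 0.17 in these classes, close to those of the list. Of all genes under 10, 83.5% and 60.0% lay apart above. With the 5th percentile subtracted the medians of the list were 0.15 and 0.04. *Sparc*, a collagen-binding glycoprotein, differed by 0.51 (SE 0.13) in MARCO-Lo ROIs. *Postn* (periostin) differed there by 0.39 (SE 0.11) and *Nid1*, a basement membrane linker, by 0.40 (SE 0.15). The gene apart below in both classes was *Fn1*, with log2 values of 7.85 and 7.69 against 8.05 and 8.09 in MARCO-Hi ROIs and 7.79 and 7.61 against 8.00 and 7.97 in MARCO-Lo ROIs. Its differences were -0.30 and -0.29 (SE 0.09 each). All 26 treated CCl4 segments of *Fn1* (154 to 244) lay under all 23 control segments (246 to 285). Segments of a liver share that liver and are no replicates of a label. The 6 other collagens, 4 of them under 10, had medians of 0.21 and 0.30, with 3 and 5 apart above. The 11 genes of crosslinking and processing, 10 of them under 10, had medians of 0.20 and 0.22, with 7 and 11 apart above, and 0.20 and 0.14 after the subtraction.

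Genes of stellate cells and pericytes also lay on the positive side, and most of them were dim outside the DESMIN+ area. Of the 21 quiescent stellate and retinoid genes listed, 16 were analysed and 12 had values under 10. In MARCO-Lo ROIs 13 lay apart above and 0 below (median 0.28), and in MARCO-Hi ROIs 11 above and 0 below (median 0.18). These counts and medians were also near those of all genes under 10, and with the 5th percentile subtracted the medians were 0.29 and 0.07. *Hgf*, the hepatocyte growth factor made by stellate cells, differed by 0.28 and 0.57 (SE 0.13 each). *Reln* (reelin), a secreted glycoprotein of stellate cells, had log2 values of 3.93 and 4.01 against 3.49 and 3.55 in MARCO-Lo ROIs and a difference of 0.45 (SE 0.09). In MARCO-Hi ROIs the difference of *Reln* was 0.19 (SE 0.09). *Lrat*, which esterifies retinol for storage, differed by 0.14 and 0.28 (SE 0.14 each). *Ecm1*, which encodes a secreted matrix protein, differed by -0.21 and 0.18 (SE 0.19 each), with overlapping livers in both classes. *Des* differed by 0.18 and 0.19 (SE 0.08 each) and by 0.11 and -0.05 after subtraction of the 5th percentile. The 8 stellate markers, 6 of them under 10, had medians of 0.19 and 0.31, with 5 and 6 apart above. The 3 portal fibroblast genes, all under 10, had medians of 0.20 and 0.18, with 2 and 1 apart above. The latter median was -0.15 after the subtraction.

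Pericyte and mural genes (11 of 23 analysed, 9 under 10) had medians of 0.22 and 0.33, with 7 and 10 apart above and 1 below in each. After the subtraction the medians were 0.15 and 0.37. Of all genes under 10, 60.0% and 83.5% lay apart above, so these counts are near that background. *Ednrb*, an endothelin receptor, had log2 values of 3.43 and 3.58 against 2.98 and 2.75 in MARCO-Hi ROIs and 3.35 and 3.65 against 3.16 and 2.67 in MARCO-Lo ROIs. Its differences were 0.64 and 0.59 (SE 0.16 each), and 1.22 and 0.98 after subtraction of the 5th percentile. The platelet-derived growth factor receptors differed by 0.34 and 0.36 (*Pdgfra*, SE 0.11 each) and by 0.22 and 0.35 (*Pdgfrb*, SE 0.11 each). Growth factors and their binding proteins (8 of 32 analysed, 4 under 10) had medians of 0.22 and 0.33, with 6 apart above in each class. Among them *Igfbp7*, a secreted insulin-like growth factor binding protein, had log2 values of 5.91 and 5.88 against 5.36 and 5.47 in MARCO-Lo ROIs and a difference of 0.48 (SE 0.09). *Igfbp7* was among the brighter genes, with a mean value of 47.0, and its difference after subtraction was 0.50.

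Other lists of the same compartment were close to the median of all genes or small. Contractile and actin genes (21 of 41 analysed) had medians of 0.14 in both classes, with 9 apart above in each and 4 and 2 below in MARCO-Hi and MARCO-Lo ROIs. The shares of all genes were 37.2% and 50.6% above and 16.8% and 14.2% below. *Vim* (vimentin) differed by 0.39 and 0.37 (SE 0.12 each) and *Flna*, an actin crosslinker, by 0.32 and 0.41 (SE 0.12 each). Integrins and adhesion genes (11 analysed) had medians of 0.06 and 0.16, genes of TGF-beta and BMP signalling (8 analysed) 0.06 and 0.20, and axon guidance genes (4 analysed) 0.29 and 0.27. With each segment set to the same median, the median turned to -0.02 for contractile genes in MARCO-Lo ROIs, and to -0.04 for integrins and for TGF-beta and BMP genes in MARCO-Hi ROIs. With the 5th percentile subtracted, the medians were 0.11 and -0.02 for contractile genes, -0.03 and -0.04 for integrins, and -0.11 and 0.06 for TGF-beta and BMP genes. *Id3*, an inhibitor of DNA binding induced by BMP signals, stood on the opposite side from the other 7 genes of its list in MARCO-Lo ROIs. Its log2 values were 4.08 and 4.03 against 4.52 and 4.55 in MARCO-Hi ROIs and 4.22 and 4.25 against 4.73 and 4.47 in MARCO-Lo ROIs, with differences of -0.48 and -0.37 (SE 0.12 each).

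**Figure D3:**
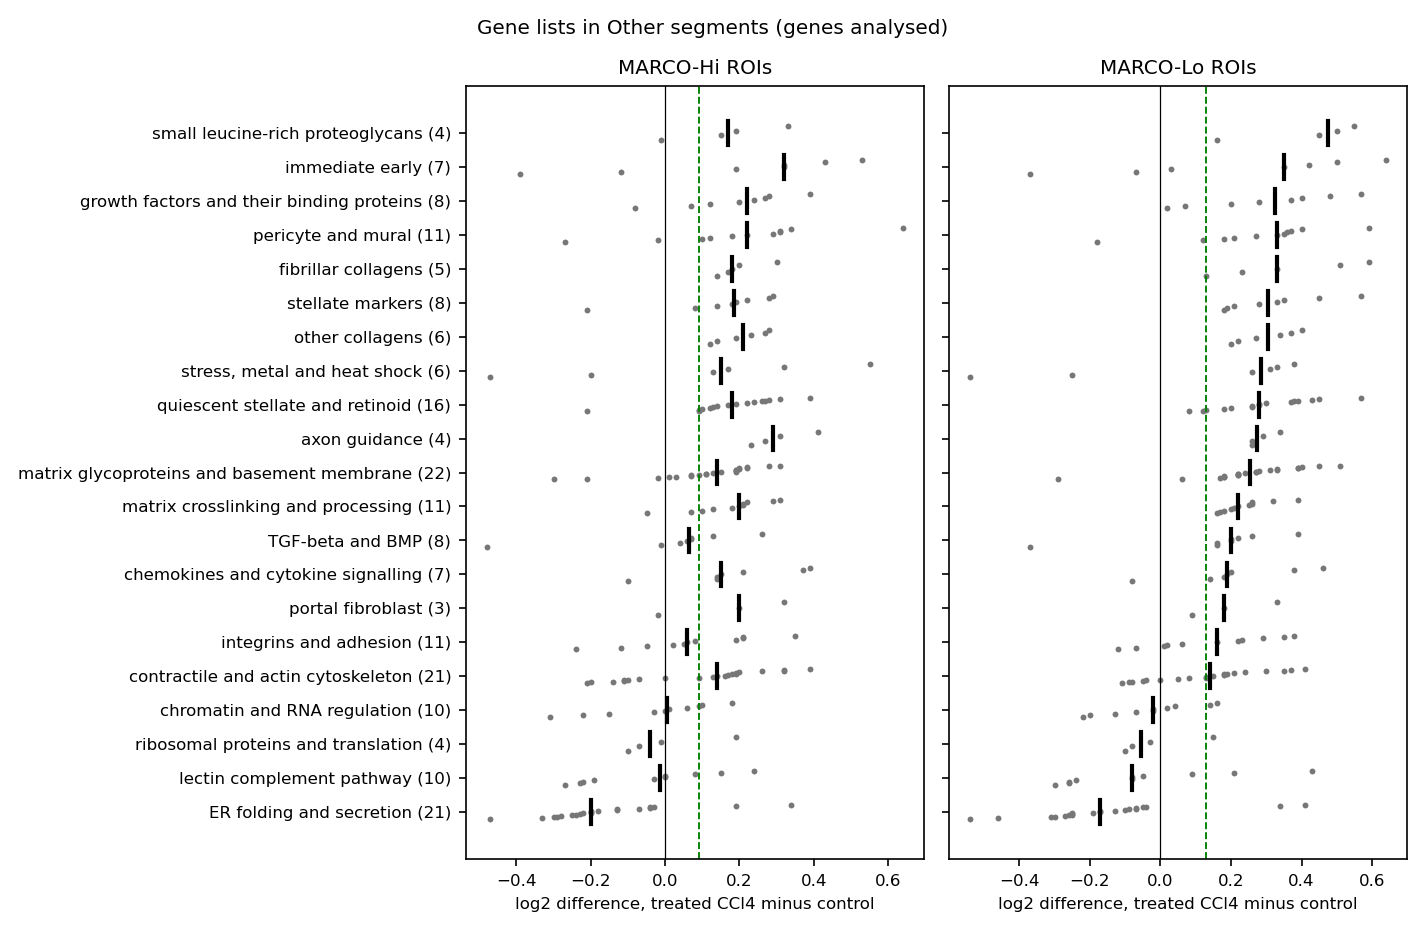
Log2 difference by label of each analysed gene (grey points) of 21 gene lists in Other segments, with the list's median as a black bar and the median of all genes as a dashed line, in MARCO-Hi ROIs (left) and MARCO-Lo ROIs (right). The number of analysed genes follows each name, and a gene may be in several lists. Genes of ER folding and secretion lie below 0 except for 2, with medians of -0.20 and -0.17. The medians of the matrix lists lie to the right of the dashed line in both classes, though not every member does.

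Genes of protein folding and secretion in the endoplasmic reticulum (ER) had lower values in the treated CCl4 livers. Of 44 listed genes 21 were analysed, and 19 had a negative difference in each class. In MARCO-Hi ROIs 15 lay apart below and 1 above, and in MARCO-Lo ROIs 14 below and 2 above. Over all genes 16.8% and 14.2% lay apart below, and of the 352 genes at or over 10, 99 and 86 did. The medians were -0.20 and -0.17, against 0.09 and 0.13 for all genes and 0.00 and 0.01 for genes at or over 10. Only 3 of the 21 had values under 10, and after subtraction of the 5th percentile the medians were -0.26 and -0.27. The genes with a positive difference were *Rcn1*, at 0.34 and 0.41 (SE 0.13 each), and *Rcn3*, which encode calcium-binding reticulocalbins.

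*Calr* (chromosome 8, 84842088 to 84846931, GRCm38.p6) encodes calreticulin, a calcium-binding chaperone of glycoproteins. It had log2 values of 7.23 and 7.16 in livers 1 and 3 against 7.56 and 7.49 in livers 2 and 4 in MARCO-Hi ROIs. In MARCO-Lo ROIs the values were 7.01 and 6.90 against 7.50 and 7.33. The differences were -0.33 and -0.46 (SE 0.09 each), with adjusted p of 0.246 and 0.0955 by limma. All 26 treated CCl4 segments (101 to 156 normalized units) were under all 23 control segments (157 to 206). *Ppib*, an ER prolyl isomerase outside the list, was apart in the same way over segments, at 89.9 to 119 against 120 to 144. Both genes were named for their small p in these same values, so the separation is no further support. Segments of a liver are also no replicates of a label.

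*Hspa5*, the ER chaperone BiP, had the most negative difference in the list, with -0.47 and -0.54 (SE 0.16 each). Its control livers differed, with 6.98 in liver 2 and 6.58 in liver 4 in MARCO-Hi ROIs, and without liver 2 the differences were -0.27 and -0.25, against -0.67 and -0.82 without liver 4. The disulfide isomerases *Pdia4* and *Pdia6* differed by -0.30 and -0.28 in MARCO-Hi ROIs and by -0.31 and -0.30 in MARCO-Lo ROIs. *Ddost*, a subunit of the enzyme that attaches N-glycans and also outside the list, differed by -0.30 and -0.28 (SE 0.08 each).

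The other named genes with lower values act at the cell surface and in lysosomes. *Lrp1*, an endocytic receptor, differed by -0.33 and -0.22 (SE 0.09 each), and *Ctsl*, the lysosomal protease cathepsin L, by -0.28 and -0.34 (SE 0.08 each). Lectin complement genes (10 of 18 analysed) had medians of -0.01 and -0.08, with 2 and 5 apart below and 2 and 0 above, and the first median turned to 0.01 when scaled to total counts. Of all genes, 16.8% and 14.2% lay apart below and 37.2% and 50.6% above, so the first count below is near that background. *Masp1*, a protease of that pathway, differed by -0.27 and -0.24 (SE 0.08 each), *Serping1*, the C1 inhibitor, by -0.22 and -0.30 (SE 0.13 each), and *Fcna* (ficolin A) by 0.24 and 0.43 (SE 0.25 each). Without liver 3, *Serping1* differed by -0.02 and -0.14, and *Fcna* by 0.05 in MARCO-Lo ROIs, against 0.81 without liver 1. The 10 genes of chromatin and RNA regulation had medians of 0.00 and -0.02, and the 4 translation genes -0.04 and -0.06.

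*Marco* had the largest difference of all genes in both classes, in segments from which the MARCO+ area had been taken out. In MARCO-Hi ROIs its log2 values (chromosome 1, 120474538 to 120505024, GRCm38.p6) were 4.65 and 4.76 in livers 1 and 3 and 3.42 and 3.40 in livers 2 and 4. The difference was 1.30 (SE 0.39), a fold of 2.46, with an adjusted p of 0.246 by limma. In MARCO-Lo ROIs livers 1 and 3 had 3.69 and 4.89 against 3.12 and 3.19, and the difference was 1.13 (SE 0.39), or 0.53 without liver 3 and 1.73 without liver 1. Of 26 treated CCl4 segments 20 were above the highest control segment (12.3). Liver 1 had 1 MARCO-Hi segment at 59.7 against a median of 16.8, and liver 3 had MARCO-Lo segments at 59.6 and 56.2 against a median of 16.5. In the HSC segments, which fewer ROIs gave (41 against 49), *Marco* differed by 1.58 and 0.46 on the log2 scale. The other Kupffer cell markers listed and the gene of IBA1 (*Aif1*) were not analysed here.

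*Mt1*, a metallothionein induced by metals and stress, varied between livers more than between labels. Its log2 values were 8.42 in liver 1 and 7.66 in liver 4, and 6.00 in liver 3 and 5.66 in liver 2, in MARCO-Hi ROIs. The same livers were high and low in MARCO-Lo ROIs, at 7.75 and 7.13 against 5.66 and 5.66. The differences by label were 0.55 and 0.31 (SE 0.77 each). Of the stress genes listed 6 were analysed, with medians of 0.15 and 0.29 that had no settled sign, since they ran from -0.20 to 0.17 and from -0.25 to 0.31 over the alternatives.

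**Figure D4:**
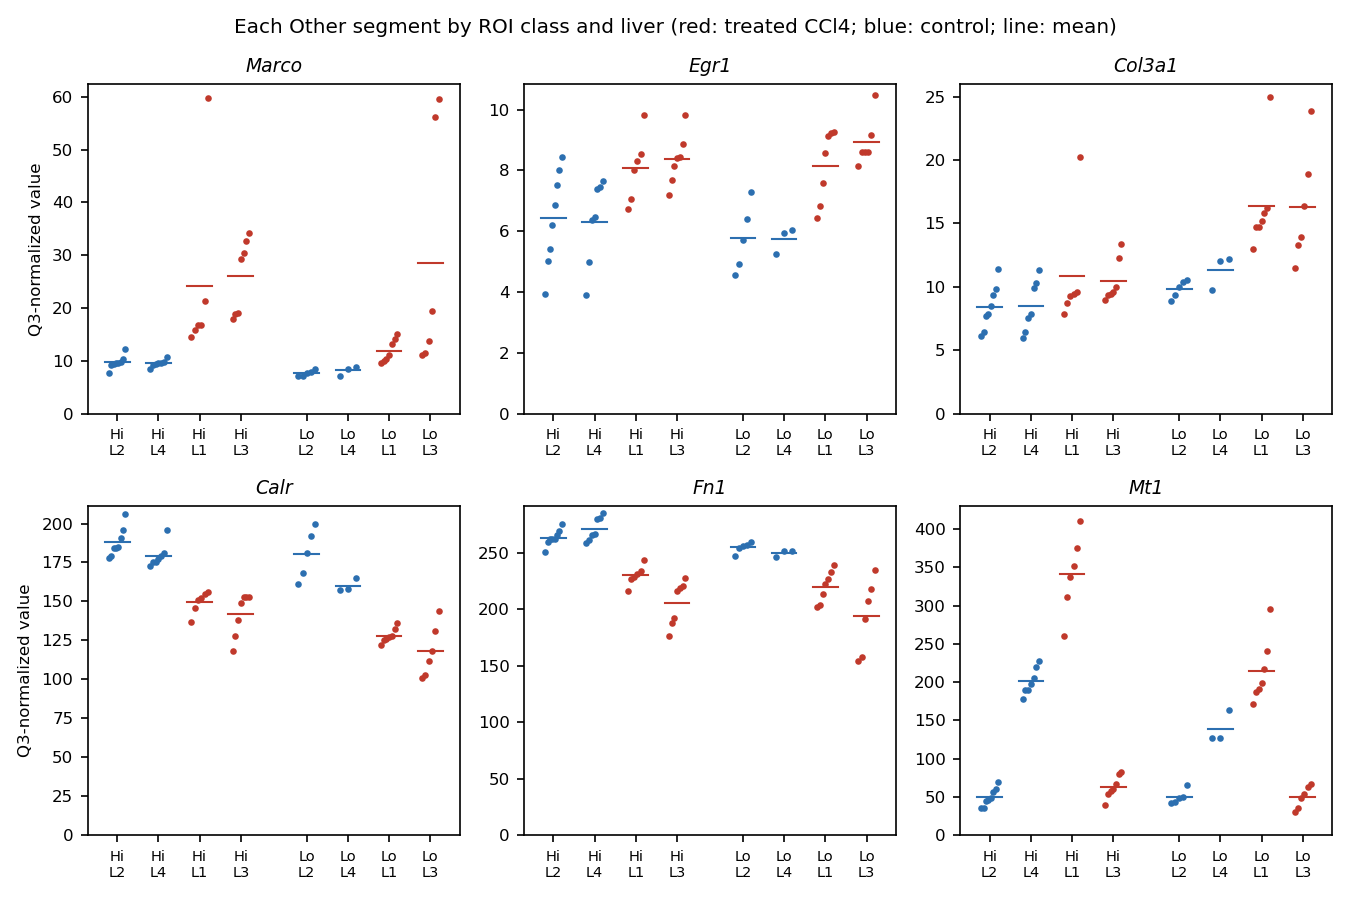
Q3-normalized value of each Other segment for *Marco*, *Egr1*, *Col3a1*, *Calr*, *Fn1* and *Mt1*, by ROI class (Hi, Lo) and liver (L1 to L4), with a line at the mean of the liver and class; axes start at 0. *Calr* and *Fn1* segments of the treated CCl4 livers (red) lie under all control segments (blue), *Col3a1* is highest in the MARCO-Lo segments of livers 1 and 3, and *Mt1* is high in livers 1 and 4.

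The difference by label was then compared between ROI classes. The medians of the 5 matrix lists were 0.14 to 0.21 in MARCO-Hi ROIs and 0.22 to 0.47 in the other class. For all genes the medians were 0.09 and 0.13, and for genes under 10 they were 0.17 and 0.24. Crosslinking and processing genes had the smallest gap, which turned with the 5th percentile subtracted (0.20 and 0.14). Of single genes, 0 of 607 genes (0.0%) passed limma's test of the difference between classes, with a lowest adjusted p of 0.576 and 37 genes at an unadjusted p below 0.05. The 5 genes with the smallest p, named after their values were seen, were *Tmem86a* (-0.26, SE 0.07), *Dcn* (-0.51, SE 0.13), *Bgn* (-0.30, SE 0.08), *Col3a1* (-0.28, SE 0.08) and *Rnd3* (-0.28, SE 0.08), each given as the change in MARCO-Hi minus the change in MARCO-Lo ROIs. edgeR called 2 genes in this comparison, *Dcn* and *Ecm1*, and DESeq2 called 1, *Dcn*.

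The difference by label was also compared with that in HSC segments, which were read at a median of 3675 counts. Averaged over both classes, 0 of 607 genes (0.0%) passed limma's test of the difference between segment types, with a lowest adjusted p of 0.373 and 38 genes at an unadjusted p below 0.05. edgeR and DESeq2 called 0 genes, and limma on single segments and the mixed model called 1, *Hspa5*. The genes given here were chosen after their values were seen. *Egr1* differed more in Other than in HSC segments by 0.63 (SE 0.17), with differences in HSC segments of 0.46 and -0.90 in the same ROI classes. *Socs2* had 0.71 (SE 0.19) and *Flna* 0.75 (SE 0.21). In HSC segments the log2 means per liver and class were only 2.62 to 3.62 for *Egr1* and 2.39 to 3.49 for *Socs2*, near the counting floor. *Hspa5* had -0.76 (SE 0.23), since its HSC differences were 0.35 and 0.16. *Calr* had -0.13 (SE 0.18), with HSC differences of -0.14 and -0.38. *Col3a1* differed by 0.59 in MARCO-Lo ROIs in both segment types, and by 0.30 in Other and -0.28 in HSC segments of MARCO-Hi ROIs.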

How the data were processed

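GeoMx libraries of 4 livers were converted with bcl2fastq (2.20.0.422, per the labels, which name build mm10). Per the study's methods, the authors removed duplicates by molecular identifiers, filtered segments and probes against negative controls, normalised to the upper quartile (Q3) and kept genes of HSCs. The deposited values are the authors' Q3-normalized signal (the 75th percentile was 26.074 in every segment). Counts were recovered as whole multiples of a step per segment (96513 of 96513 values whole, relative tolerance 1e-06), and their totals are the depth. Negative probes were not analysed here.

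Groups were taken from the labels. One ROI of liver 4 has no class in its library name, and its class was taken from the sample titles. Values were averaged per liver and ROI class and put on the log2 scale with 1 added. limma (3.58.1, R 4.3.3) was fitted to 8 means in 4 groups, with the correlation within a liver from duplicateCorrelation (0.7, 4 residual degrees of freedom, 4.59 prior), and to 16 means of Other and HSC segments (correlation 0.099). p was two-sided and adjusted by Benjamini-Hochberg over 607 genes. In fits without a liver the correlation of all livers was kept. The mixed model that the methods name has no stated random term. edgeR (4.0.16, quasi-likelihood), DESeq2 (1.42.0) and lme4 (1.1.37) with lmerTest (3.1.3) were alternatives. The methods were first run on simulated counts. The 5th percentile subtraction and the fits without a liver or without the ROI of no named class were not. Simulated livers were set to vary less than the measured livers did for several named genes. Tables used Python 3.11.15, numpy 2.4.6 and pandas 2.3.3, and figures matplotlib 3.10.9.

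In each class, the 5 genes per direction with the smallest unadjusted p were named, since fewer than 5 passed the threshold, with the segment markers and members of described lists. Of the 16 genes so chosen, 1 is not reported here. Of 32 lists, 21 had 3 or more analysed genes and are described. The others were hepatocyte, monocyte-derived macrophage, cholangiocyte, lymphoid, mesothelial and erythroid (0 genes) and mitochondrial respiration, lipid and cholesterol, Kupffer cell, endothelial and smooth muscle (1 gene each: *Ndufa2*, *Lpl*, *Marco*, *Rspo3*, *Tagln*). The segments, lists and genes were chosen with earlier results of these data known. A list is described by its counts.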

Additional observations from a re-analysis of the deposited data

Results flagged for a closer look

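Among the 8 control MARCO-Lo segments, each of the 44 named genes was examined for a segment far from the others by Dixon's ratio, for which chance flags about 1 in 20, and 5 were found. *Lrp1* was 90.4 normalized units in a segment of liver 2, with the next at 85.0 and the lowest at 80.9. *Ddost* was 52.0 in a segment of liver 2, with the next at 45.3 and the lowest at 39.6. *Dcn* was 32.2 in a segment of liver 4, with the next at 21.1 and the lowest at 12.8. *Masp1* was 46.9 in a segment of liver 4, with the next at 43.0 and the lowest at 41.0. The flagged segment of *Dcn* and *Masp1* was the same, from the ROI with no class in its library name. *Fcna* was 9.11 in a segment of liver 4, with the next at 6.97 and the lowest at 5.22. The other groups held more than 10 segments and were not examined. By limma on the means of the livers, no named gene passed the test of a difference between ROI classes or between segment types, while edgeR and DESeq2 called *Dcn* between classes, edgeR also *Ecm1*, and both fits on single segments *Hspa5* between segment types.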

How the results depend on the processing

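No paired analysis was possible because the livers of the 2 labels share no replicate number. The counts of genes past the threshold, 0 in all 4 comparisons, depended on the method and on the unit of the fit. edgeR and DESeq2 were given the same summed counts. Fits on single segments take segments as units, although a label has only 2 livers. In MARCO-Hi ROIs the count was 43 with DESeq2, 50 with limma on single segments, 13 with the mixed model and 1 (*Marco*) with only the 4 means of the class. In MARCO-Lo ROIs it was 68 with DESeq2, 68 with limma on single segments, 26 with the mixed model, 3 with no correlation within a liver, 3 (*Ppib* and *Calr* among them) with segments set to a common median, and 3 (*Col3a1*, *Egr1*, *Igfbp7*) without the ROI that has no class in its library name. Between classes it was 2 with edgeR and 1 with DESeq2, and between segment types 1 (*Hspa5*) with limma on single segments and 1 with the mixed model. Without 1 liver at a time it ran from 0 to 1 in MARCO-Hi ROIs (*Marco*, without liver 1 or 3), from 0 to 6 in MARCO-Lo ROIs (1 without liver 1, 6 without liver 4), from 0 to 2 between classes (2 without liver 2) and was 0 between segment types. The 5th percentile subtraction, chosen after the data were seen, gave 0 in all 4 comparisons. The cause of these differences was not tested. Re-centring moved the median of all genes from 0.09 to -0.02 in MARCO-Hi and from 0.13 to -0.02 in MARCO-Lo ROIs. Of the named genes, the sign turned for *Dcn* in MARCO-Hi ROIs (0.00 by mean of log2 values, 0.02 weighted by segments, 0.01 scaled to total counts, 0.01 by limma on single segments, 0.01 in the mixed model, -0.24 to 0.23 without 1 liver), *Mt1* without 1 liver (-0.66 to 1.76 in MARCO-Hi and -0.73 to 1.36 in MARCO-Lo ROIs, with -0.45 and -0.42 without liver 2), *Sparc* and *Lrat* in MARCO-Hi ROIs (-0.01 without liver 3 to 0.40 without liver 1, and -0.07 to 0.34 without the same livers), *Ecm1* in MARCO-Lo ROIs (-0.16 without liver 2 to 0.52 without liver 4), and *Des* in MARCO-Lo ROIs with the 5th percentile subtracted (-0.05). The other named genes kept their sign in all 21 alternatives in which they were measured. The dimmest gene of an Other segment had 12 to 109 counts, against 1 to 2 in HSC segments, so counting error limits the comparison with HSC segments more.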
